A study of Homo sapiens with 7 samples.

Results

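Plasminogen activators, their receptor and an inhibitor of them were followed after depletion of IGF2BP1 in Huh-7, a cell line from a human liver cancer. The 4 genes are PLAU, PLAT, PLAUR and SERPINE2, and they were found by symbol among the 58174 genes of the deposited table. They were proposed with the contrast between the groups already known, so their differences between groups are described here without a test. Total RNA was sequenced 72 h after transfection from 3 libraries of cells that received a control siRNA (siC) and 4 libraries of cells that received a pool of siRNAs against IGF2BP1 (siIGF2BP1, labelled siImp1). IGF2BP1 encodes an RNA-binding protein of fetal and tumor cells. All libraries come from 1 cell line kept in serum-containing medium, all cells were transfected, and the labels do not say whether the libraries of a group come from separate cultures. P-values therefore measure the spread between these libraries, which may be technical.

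The plasminogen system is a cascade of secreted proteases. PLAU encodes urokinase (uPA) and PLAT encodes tissue-type plasminogen activator (tPA), serine proteases that cut the zymogen plasminogen into plasmin. Plasmin dissolves fibrin and, together with other proteases, degrades matrix around cells. PLAUR encodes the urokinase receptor (uPAR), a membrane-anchored protein that holds uPA at the cell surface, and SERPINE2 encodes protease nexin-1, a serpin that traps thrombin, uPA and tPA. The liver makes plasminogen and fibrinogen, and uPA at the cell surface is known for its part in tumor cell invasion.

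Promoters of 3 of the genes were taken from RefSeq (GRCh38.p14) as windows of 300 bases, from 250 before to 50 after a start site. There were 2 windows for PLAU, 1 for PLAUR and 2 for SERPINE2. No window of PLAT was searched, so what follows on promoters covers the other 3 genes. AP-1, CArG, TEAD, GC box and E-box motifs were searched on both strands, and 3 matches are shown to place these elements, with that match in capitals. PLAUR alone held an AP-1 site (TGANTCA), which starts at position -186 from its start site, at chr19:43670337-43670366 (minus strand). An AP-1 site was found in 7.71% of 35116 promoter windows. SERPINE2 alone held the E-box CACGTG, at chr2:224031548-224031577 (minus strand), a motif of 7.26% of windows. This E-box lies in the SERPINE2 window from 224031429 to 224031728. The other SERPINE2 window, from 224038591 to 224038890, is nearer to the 5' end of the gene at 224039318. PLAU held 3 GC boxes (GGGCGG) and SERPINE2 held 3, a motif of 45% of windows, and the PLAU match nearest to the start site is at chr10:73911080-73911109 (plus strand). None of the 5 windows held a CArG box, the element bound by SRF (1.29% of windows), or the TEAD motif GGAATG (14% of windows).
PLAUR AP-1 site: tcacaactccaTGAGTCAgggccgagccag
SERPINE2 E-box: ctgatgctaggtCACGTGgtcacatgccct
PLAU GC box: ggggcggcgccgGGGCGGgccctgatatag

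The 3'UTRs of the MANE Select transcripts, the reference transcript of each gene, were searched on the transcript strand for the AU-rich element TATTTAT, a feature of short-lived mRNAs, and for the seed matches of let-7 (CTACCTC) and miR-122 (ACACTCC). The AU-rich element occurred 2 times in PLAU (3'UTR of 929 bases), 2 times in PLAT (1275 bases) and 1 time in PLAUR (311 bases), and was not found in SERPINE2 (822 bases). Among 3'UTRs of a length within 0.8 to 1.25 times that of the gene, 24% (PLAU), 31.8% (PLAT), 9.19% (PLAUR) and 23% (SERPINE2) held it. Neither seed match occurred in any of the 4 genes. In 3'UTRs of like length, from 2.11% to 7.99% held the let-7 match and from 2.48% to 6.74% the miR-122 match. The first element of PLAU lies at chr10:73917408-73917437 (plus strand) and that of PLAUR at chr19:43648600-43648629 (minus strand), and they are shown with the element in capitals.
PLAU AU-rich element: tgtacactgaaTATTTATatttcactattt
PLAUR AU-rich element: aatattcatatTATTTATtttatacttaca

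Libraries held from 12826550 to 33212205 reads on genes. IGF2BP1 was lower in each siIGF2BP1 library (15.3 to 16.6 FPKM) than in any siC library (80.4 to 84.4 FPKM), with a log2 change of -2.37 (SE 0.0558, limma adjusted p = 1.16e-05). FPKM scales the fragments of a gene to its length and to the library size. All 6 hepatocyte markers were present, with means from 19 to 2916 FPKM. Of 12 markers of fibroblasts, endothelium and leukocytes, only PECAM1 (2.93 FPKM) and CD14 (1.67 FPKM) averaged 1 FPKM or more, and KDR was listed at 0. The summed fibroblast markers ran from 0.850 to 1.06 FPKM in siC and from 1.20 to 1.33 FPKM in siIGF2BP1, and the endothelial ones from 2.59 to 3.07 and from 2.86 to 3.30 FPKM. The summed leukocyte markers ran from 0.462 to 1.29 FPKM in siC and from 2.07 to 2.69 FPKM in siIGF2BP1, nearly all of it CD14, while PTPRC stayed at or under 0.0127 FPKM. Whether these shifts have a part in the results was not tested. siC replicate 3 correlated with the other siC libraries at 0.916 and 0.929 on the log2 scale, against 0.971 between those, and each result is given with and without it where it matters.

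The genes lie on different chromosomes of GRCh38. PLAU (ENSG00000122861) spans 73909177 to 73917496 on chromosome 10, plus strand, and PLAT (ENSG00000104368) spans 42174718 to 42207709 on chromosome 8, minus strand. PLAUR (ENSG00000011422) spans 43646095 to 43670547 on chromosome 19, minus strand, and SERPINE2 (ENSG00000135919) spans 223975045 to 224039318 on chromosome 2, minus strand. Their MANE Select transcripts have 11, 14, 7 and 9 exons in that order. PLAU overlaps C10orf55 on the other strand, which held from 0 to 8 reads per library, and PLAUR contains RN7SL368P, which held 0 or 1 read. Without a stated strand setting, reads of overlapping genes cannot be told apart.

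PLAU was the most abundant member, and its level was higher in siIGF2BP1. siC replicates 1 to 3 held 2.38, 2.18 and 2.54 FPKM, from 153, 206 and 103 reads. siIGF2BP1 replicates 1 to 4 held 7.15, 7.74, 7.24 and 7.47 FPKM, from 382, 428, 283 and 286 reads. The groups were far apart, and the lowest siIGF2BP1 library stood above the highest siC library by more than the whole range within either group. The siC libraries averaged 2.36 ± 0.179 FPKM (SD, n = 3) and the siIGF2BP1 libraries averaged 7.40 ± 0.263 FPKM (SD, n = 4), a 3.13-fold higher mean (3.25-fold with siC replicate 3 left out), and the log2 change on log2(FPKM + 0.1) was 1.61 (SE 0.0756). With total RNA from a culture, a change in the number of cells that express a gene and a change in its RNA per cell cannot be told apart.

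The libraries of a group differed in PLAU by no more than counting allows. The chi-square per degree of freedom of its reads against a common rate, which is near 1 where libraries differ by counting error only, was 0.853 in siC and 0.490 in siIGF2BP1. Over the fits that each left out 1 library, its log2 change ran from 1.55 to 1.66.

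**Figure D1:**
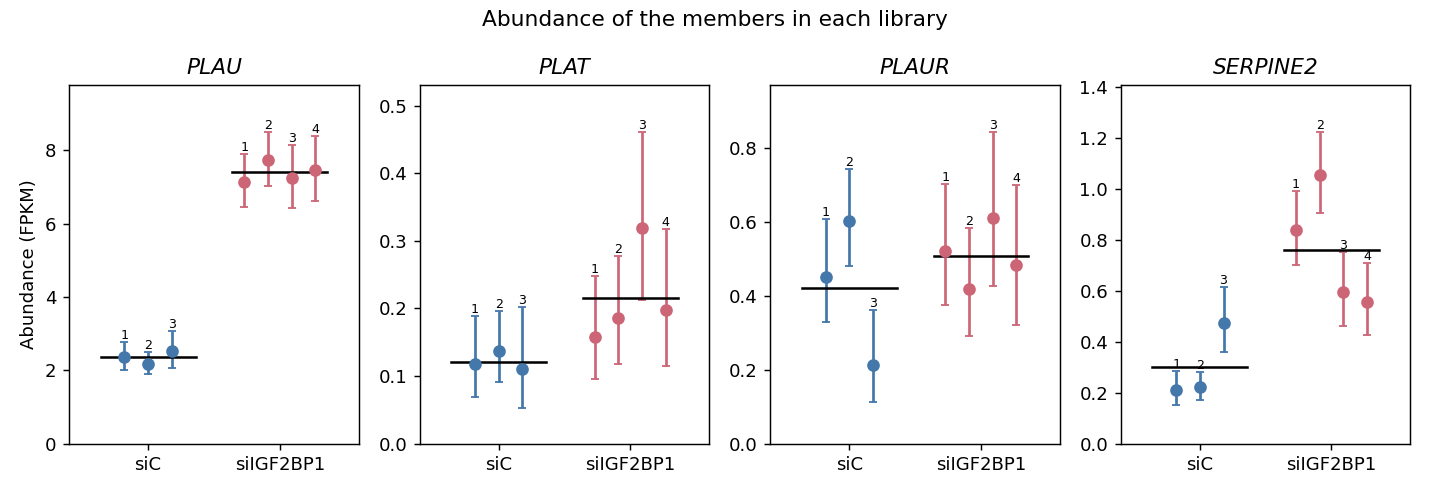
Abundance (FPKM, linear axis from 0) of PLAU, PLAT, PLAUR and SERPINE2 in each siC (blue) and siIGF2BP1 (red) library. Points are libraries numbered by replicate, bars are exact Poisson 95% intervals of the reads and black lines are group means. PLAU sits between 2.18 and 2.54 FPKM in siC and between 7.15 and 7.74 FPKM in siIGF2BP1, whereas the groups overlap for PLAUR.

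PLAT, the other activator, was close to the limit of what the depth can show. siC replicates 1 to 3 held 0.118, 0.137 and 0.110 FPKM, from 17, 29 and 10 reads. siIGF2BP1 replicates 1 to 4 held 0.158, 0.185, 0.319 and 0.198 FPKM, from 19, 23, 28 and 17 reads. The groups did not overlap, but siC replicate 2 and siIGF2BP1 replicate 1 were near each other, and the exact Poisson 95% intervals of 0.0916 to 0.196 FPKM and 0.0954 to 0.247 FPKM of these libraries cover much the same range. Such intervals cover counting error only. The chi-square per degree of freedom of PLAT was 0.233 in siC and 2.33 in siIGF2BP1. The siC libraries averaged 0.121 ± 0.0139 FPKM (SD, n = 3) and the siIGF2BP1 libraries averaged 0.215 ± 0.0713 FPKM (SD, n = 4), or 1.77-fold higher, with a log2 change of 0.49 (SE 0.253). siIGF2BP1 replicate 3 stood above its group, and without it the log2 change was 0.34.

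PLAUR, the receptor, overlapped between the groups. siC replicates 1 to 3 held 0.452, 0.602 and 0.212 FPKM, from 44, 86 and 13 reads. siIGF2BP1 replicates 1 to 4 held 0.520, 0.419, 0.610 and 0.484 FPKM, from 42, 35, 36 and 28 reads. The siIGF2BP1 libraries lay close together, and the spread came from siC, where replicate 3 was the lowest of all 7 libraries. The chi-square per degree of freedom was 6.97 in siC, above counting error, and 0.869 in siIGF2BP1. The siC libraries averaged 0.422 ± 0.197 FPKM (SD, n = 3) and the siIGF2BP1 libraries averaged 0.508 ± 0.0796 FPKM (SD, n = 4), or 1.20-fold, with a log2 change of 0.29 (SE 0.328). Without siC replicate 3 the direction turned, to a mean of 0.527 FPKM in siC, 0.964-fold, and a log2 change of -0.044.

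SERPINE2, the inhibitor, was higher in each siIGF2BP1 library than in any siC library, with a wide spread in both groups. siC replicates 1 to 3 held 0.211, 0.221 and 0.474 FPKM, from 41, 63 and 58 reads. siIGF2BP1 replicates 1 to 4 held 0.838, 1.06, 0.594 and 0.555 FPKM, from 135, 176, 70 and 64 reads. The gap between siC replicate 3 and siIGF2BP1 replicate 4 was small beside the range within each group. The siC libraries averaged 0.302 ± 0.149 FPKM (SD, n = 3) and the siIGF2BP1 libraries averaged 0.761 ± 0.233 FPKM (SD, n = 4), or 2.52-fold higher, with a log2 change of 1.12 (SE 0.338). Without siC replicate 3 the fold was 3.52 and the log2 change 1.41. The spread was above counting error, with a chi-square per degree of freedom of 11.9 in siC and 9.68 in siIGF2BP1.

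Groups did not overlap for 3 of the 4 genes, all of them higher in siIGF2BP1. Of the 34319 genes with a read in any library, 8.13% were higher in siIGF2BP1 without overlap, and 16.1% did not overlap in either direction. The genes were chosen on this contrast, and nothing is read from the count. Only PLAU reached the filter for testing, an average of 1 FPKM across the 7 libraries. The SEs of the other 3 genes are from a fit over all genes with a read.

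SERPINE2 and PLAUR deviated in opposite ways in siC replicate 3 and in siIGF2BP1 replicate 2. In siC replicate 3, the log2 distance from the other siC libraries was 0.86 for SERPINE2 and -0.998 for PLAUR. In siIGF2BP1 replicate 2 the distances were 0.62 for SERPINE2 and -0.29 for PLAUR, and for PLAU they were 0.15 and 0.086 in these 2 libraries. SERPINE2 lay below and PLAUR above the group in siC replicates 1 (-0.46 and 0.24) and 2 (-0.40 and 0.76). They did so too in siIGF2BP1 replicate 3 (-0.36 and 0.31). The deviations had the same sign in siIGF2BP1 replicate 1 (0.22 for SERPINE2, 0.050 for PLAUR) and replicate 4 (-0.47 and -0.065). The distance of most libraries from their group also went with transcript GC content. Over 10567 protein-coding genes, Spearman's rho of the distance with GC content was -0.561 in siC replicate 3 and -0.493 in siIGF2BP1 replicate 2, and from 0.0151 to 0.581 in the other 5. The SERPINE2 transcript has a GC content of 45.7%, above that of 44% of these genes, and the PLAUR transcript 55.9%, above that of 74.5%. After a cubic trend with GC content was removed from each library, siC replicate 3 lay 0.83 from its group for SERPINE2 and -0.72 for PLAUR. For siIGF2BP1 replicate 2 these distances were 0.58 and -0.21. The log2 changes were then 1.14 for SERPINE2, 0.33 for PLAUR, 0.52 for PLAT and 1.64 for PLAU. Whether GC content has a part in the deviations was not tested.

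**Figure D2:**
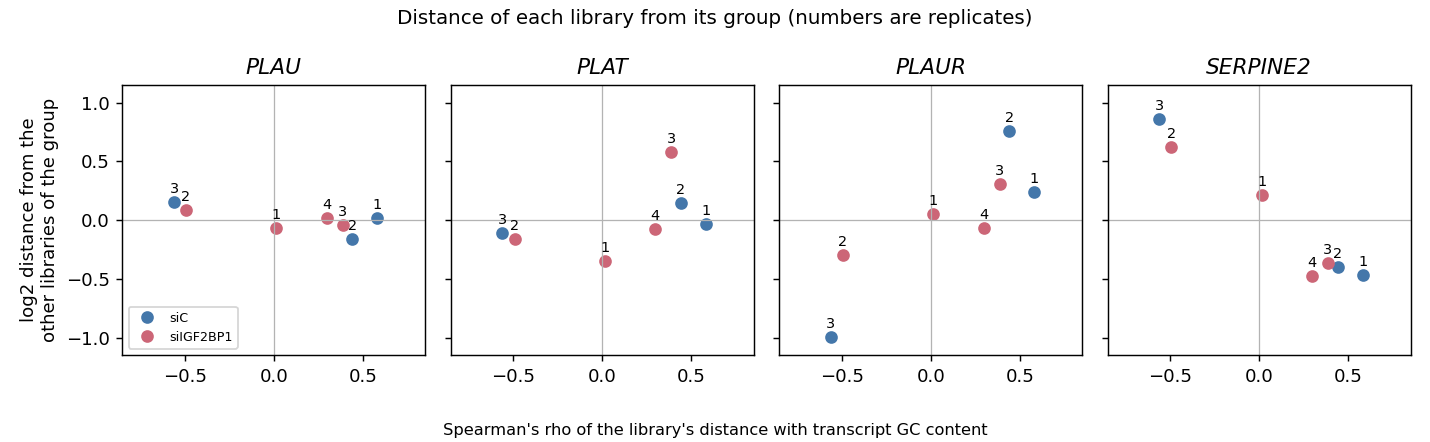
Log2 distance of each library from the other libraries of its group (vertical axis) for the 4 genes, against Spearman's rho of that library's distances with transcript GC content over 10567 genes (horizontal axis). Blue points are siC, red points siIGF2BP1, and numbers are replicates. SERPINE2 is highest and PLAUR lowest at siC replicate 3 (rho -0.561), while PLAU stays between -0.16 and 0.15. Distances within a group are not independent.

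The order of levels was set by PLAU at the top and PLAT at the bottom in both groups. In siC the means fell from PLAU (2.36 FPKM) to PLAUR (0.422), SERPINE2 (0.302) and PLAT (0.121), and the libraries of PLAUR (0.212 to 0.602) and SERPINE2 (0.211 to 0.474) overlapped. The overlap came from siC replicate 3, since the other siC libraries held 0.452 and 0.602 FPKM of PLAUR and 0.211 and 0.221 FPKM of SERPINE2, with averages of 0.527 and 0.216 FPKM. In siIGF2BP1 the order was PLAU (7.40 FPKM), SERPINE2 (0.761), PLAUR (0.508) and PLAT (0.215), and SERPINE2 (0.555 to 1.06) and PLAUR (0.419 to 0.610) overlapped again. Among the 31229 genes above 0 in siC, 64.3% had a lower mean than PLAU, 42.4% than PLAUR, 38.4% than SERPINE2 and 27.5% than PLAT.

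Levels of different genes depend on the length they are divided by. The gene lengths in the table, which exceed the MANE Select transcript for each gene, were 2950 bases for PLAU, 6618 for PLAT, 4457 for PLAUR and 8891 for SERPINE2, against 2343, 3062, 1368 and 2226 bases for the MANE Select transcripts. Per length of these transcripts, a choice made after seeing the data, the siC means were 2.98 for PLAU, 1.38 for PLAUR, 1.21 for SERPINE2 and 0.262 FPKM for PLAT, and the siIGF2BP1 means were 9.31 for PLAU, 3.04 for SERPINE2, 1.66 for PLAUR and 0.465 FPKM for PLAT. The order was kept in each group.

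**Figure D3:**
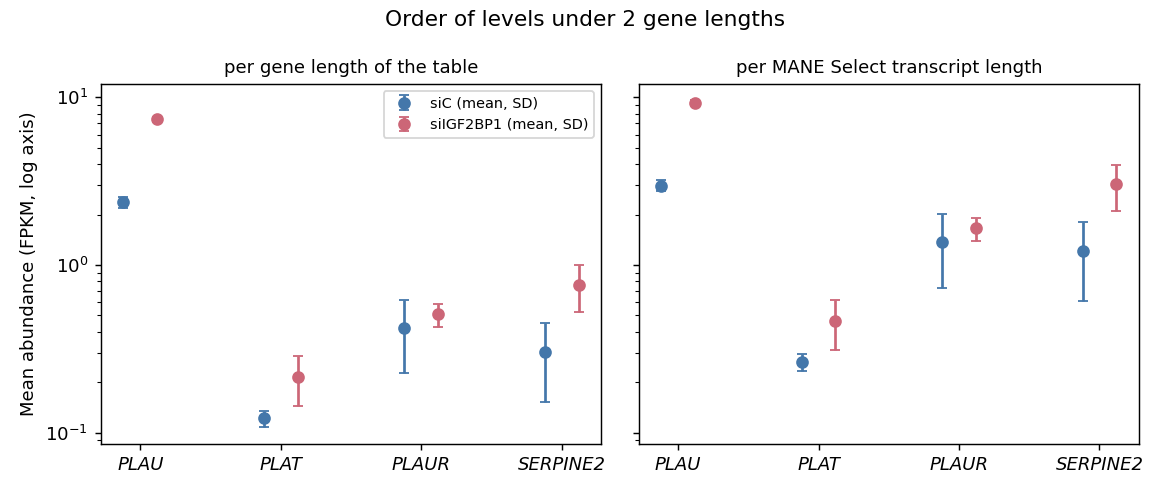
Mean abundance (FPKM, log axis) of each gene in siC (blue, n = 3) and siIGF2BP1 (red, n = 4), with the SD, scaled to the gene length of the deposited table (left) or to the MANE Select transcript (right). PLAU is the highest and PLAT the lowest gene under both lengths, at 2.36 and 0.121 FPKM in siC on the left.

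Ratios within a library do not depend on its size, but do depend on the gene lengths used, here those of the deposited table. The ratio of urokinase to its receptor (PLAU to PLAUR, FPKM) was 5.25, 3.62 and 12 in siC replicates 1 to 3 and 13.7, 18.5, 11.9 and 15.4 in siIGF2BP1 replicates 1 to 4, so siC replicate 3 lay within the range of siIGF2BP1 and the other siC libraries lay below it. The ratio of urokinase to the inhibitor (PLAU to SERPINE2) was 11.2, 9.85 and 5.35 in siC and 8.53, 7.33, 12.2 and 13.5 in siIGF2BP1. The ranges of this ratio overlapped, with means of 8.82 ± 3.08 (SD, n = 3) and 10.4 ± 2.92 (SD, n = 4). The direction turned when siC replicate 3 was left out, with a siC mean of 10.6. The ratio of the activators (PLAU to PLAT) ran from 15.9 to 23.1 in siC and from 22.7 to 45.1 in siIGF2BP1. Per length of the MANE Select transcripts, the mean ratio in siC and siIGF2BP1 was 2.68 and 5.75 for PLAU to PLAUR, 2.78 and 3.27 for PLAU to SERPINE2 and 11.5 and 21.4 for PLAU to PLAT.

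Genes with the most similar pattern were sought over the 7 libraries among protein-coding genes tested, by the Pearson correlation of log2(FPKM + 0.1). For PLAU these were GCNT1 (r = 0.999), a glycosyltransferase that branches O-glycans, DSE (r = 0.998), an epimerase of dermatan sulfate synthesis, and PLEKHA2 (r = 0.998). GCNT1 averaged 2.56 FPKM over siC (SD 0.0614, n = 3) and 6.11 FPKM over siIGF2BP1 (SD 0.136, n = 4). DSE averaged 0.998 FPKM (SD 0.0639, n = 3) and 3.27 FPKM (SD 0.0470, n = 4). For SERPINE2 they were ZNF254 (r = 0.994), ZNF566 (r = 0.990) and TMEM45B (r = 0.989), and for PLAUR C16orf91 (r = 0.990), FAM3A (r = 0.987) and IAH1 (r = 0.981). For PLAT, with few reads, they were SELENOW (r = 0.969), GGH (r = 0.956) and USP36 (r = 0.944). The points share libraries and 2 groups, and the best of 10672 genes over 7 points is high by construction.

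The other genes of the system were taken from a list of 68 genes in 7 roles, of which 43 passed the filter. The list was written with earlier results of these data known, so nothing is read from its shares. Of these, 2 rose and 0 fell (limma, adjusted p at most 0.01 over 14839 genes), with 17 (39.5%) at an unadjusted p under 0.05, against 25.9% of all genes tested. Over all genes tested 1.65% rose and 2.28% fell, and the 4.65% of the list that passed stands beside 3.93% in either direction. The median log2 change of the list was 0.084, against -0.017 over all genes tested. Without siC replicate 3, 6 rose and 7 fell, which is 30.2% of the list against 10.3% of all genes tested. The shares changed with the library, and when any other was left out, 4.65% of the list and from 0.869% to 1.31% of all genes passed.

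Both rises were among the 7 tested proteases that can activate plasminogen or pro-urokinase, or 28.6% of them, against 1.65% of all genes tested. This role was listed with earlier results of these data known, and nothing is read from the count. HABP2, a circulating protease that can activate pro-urokinase, was at 10.3, 11.1 and 8.74 FPKM in siC replicates 1 to 3 and at 23.2, 21.9, 23.2 and 25.2 FPKM in siIGF2BP1 replicates 1 to 4. Its groups were well apart, and its log2 change was 1.21 (SE 0.0951, limma adjusted p = 0.000834). HPN encodes hepsin, a transmembrane protease of hepatocytes that can also activate pro-urokinase. HPN was at 3.60, 3.79 and 2.69 FPKM in siC and at 8.21, 8.36, 8.46 and 8.32 FPKM in siIGF2BP1, with a log2 change of 1.30 (SE 0.118, limma adjusted p = 0.00125). The siIGF2BP1 libraries of HPN were almost level. HABP2 overlaps NRAP on the other strand, which held at most 8 reads, and HPN overlaps HPN-AS1, listed at 0. Both genes passed in each of the 7 fits that left out 1 library. The lysosomal cathepsins CTSB (23.3 and 21.9 FPKM, log2 change -0.082) and CTSL (14.4 and 17 FPKM, log2 change 0.28) did not pass.

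Of the substrates, 3 fibrinogen chains were tested and 0 passed the threshold. An unadjusted limma p under 0.05 was reached by 2 of them and by 25.9% of all genes tested. Plasminogen itself, PLG, named after its values were seen, was below the filter and not tested, with 4 to 19 reads per library, and averaged 0.0981 FPKM over siC (SD 0.0363, n = 3) and 0.0658 FPKM over siIGF2BP1 (SD 0.0150, n = 4). The fibrinogen chains were abundant. FGA was at 238 and 210 FPKM (log2 change -0.14, limma adjusted p = 0.650) and FGB at 333 and 267 FPKM (log2 change -0.30, limma adjusted p = 0.153) in siC and siIGF2BP1. The third chain, FGG, named after its values were seen, was at 178, 183 and 159 FPKM in siC and at 145, 142, 134 and 145 FPKM in siIGF2BP1, without overlap (log2 change -0.29, SE 0.0735, limma adjusted p = 0.0469). All 3 chains fell once siC replicate 3 was left out, a fit in which 10.3% of all genes tested passed. FGG was then at -0.35 (limma adjusted p = 0.00355). FGA was at -0.36 (limma adjusted p = 0.00208, the lowest among its settings, the highest being 0.961). FGB was at -0.44 on the log2 scale (limma adjusted p = 0.000989, the lowest among its settings, the highest being 0.427).

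Of 13 other inhibitors of fibrinolysis or coagulation, 9 were tested and 0 passed. Among the 9, 4 had an unadjusted limma p under 0.05, against 25.9% of all genes tested. A2M, a broad protease trap of plasma, was at 204, 202 and 160 FPKM in siC and at 132, 124, 133 and 134 FPKM in siIGF2BP1 (log2 change -0.52, SE 0.0997, limma adjusted p = 0.0188). SERPIND1, or heparin cofactor II, a thrombin inhibitor, was at 56.9, 56.6 and 41.7 FPKM in siC and at 77.7, 74.3, 78 and 82 FPKM in siIGF2BP1 (log2 change 0.60, SE 0.118, limma adjusted p = 0.020). Groups did not overlap for either gene, as was the case for 27% of all genes tested. Both passed when siC replicate 3 was left out (A2M at a log2 change of -0.63, SERPIND1 at 0.46) and with quantile normalization (A2M at -0.41, SERPIND1 at 0.67), and SERPIND1 also with voom on recovered reads (0.61). SERPINC1, or antithrombin, which also inhibits thrombin, was named after its values were seen. It had the largest log2 change of these inhibitors, 1.06 (SE 0.222, limma adjusted p = 0.0260). It was at 6.84, 5.47 and 3.33 FPKM in siC and at 11.02, 10.2, 9.73 and 11.2 FPKM in siIGF2BP1. With siC replicate 3 left out, 4 of the 9 inhibitors passed, against 10.3% of all genes tested. These were A2M and SERPIND1 with SERPINC1 (0.77) and CPB2 (0.64), the latter a carboxypeptidase that slows fibrinolysis. SERPIND1 lies within PI4KA on the other strand, which held 1271 to 4467 reads.

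Genes that place the system at the cell surface did not pass either. The plasminogen-binding proteins ENO1 (525 and 641 FPKM, log2 change 0.30, limma adjusted p = 0.169) and S100A10 (78.3 and 84.8 FPKM, log2 change 0.12, limma adjusted p = 0.534) were among the most abundant genes of the list, and 0 of the 4 genes of this role passed (2 at an unadjusted p under 0.05). Of 16 partners and clearance receptors, 12 were tested and 0 passed (3 at an unadjusted p under 0.05). Over all genes tested, 25.9% had an unadjusted limma p under 0.05. Vitronectin (VTN), a matrix ligand of uPAR, was at 106 and 90.9 FPKM (log2 change -0.23, limma adjusted p = 0.0703), and integrin beta-1 (ITGB1) at 82.2 and 101 FPKM (log2 change 0.29, limma adjusted p = 0.0207). When siC replicate 3 was left out, both passed, at -0.27 and 0.31, as did 10.3% of all genes tested. Among relatives of uPAR, 3 of 8 were tested and 0 passed (0 at an unadjusted p under 0.05). They were CD59 (10.1 FPKM in both groups), LYPD6 (1.78 and 1.71 FPKM) and LYPD6B, which is named outside the rule.

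Downstream proteases and their inhibitors were largely silent or did not pass. MMP1, MMP7 and MMP9, matrix metalloproteases, were listed at 0 in each library. Of 15 genes of this role, 5 were tested and 0 passed the threshold. Among the 5, 3 had an unadjusted limma p under 0.05, against 25.9% of all genes tested. The membrane protease MMP15 was at 18.9, 17.5 and 13.3 FPKM in siC and at 10.6, 9.64, 11.1 and 10.5 FPKM in siIGF2BP1 (log2 change -0.64, SE 0.125, limma adjusted p = 0.0201). The metalloprotease inhibitor TIMP3 was at 12.4, 11.8 and 11.5 FPKM in siC and at 7.40, 7.40, 9.30 and 8.57 FPKM in siIGF2BP1 (log2 change -0.54, SE 0.0967, limma adjusted p = 0.0149). Groups did not overlap for either, as was the case for 27% of all genes tested. Both passed with voom on recovered reads (-0.65 and -0.55). MMP15 (-0.79) and MMP14 also passed when siC replicate 3 was left out, as did 10.3% of all genes tested. TIMP3 did not pass there (-0.56, limma adjusted p = 0.0131). SYN3 overlaps TIMP3 on the other strand, with 45 to 121 reads.

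**Figure D4:**
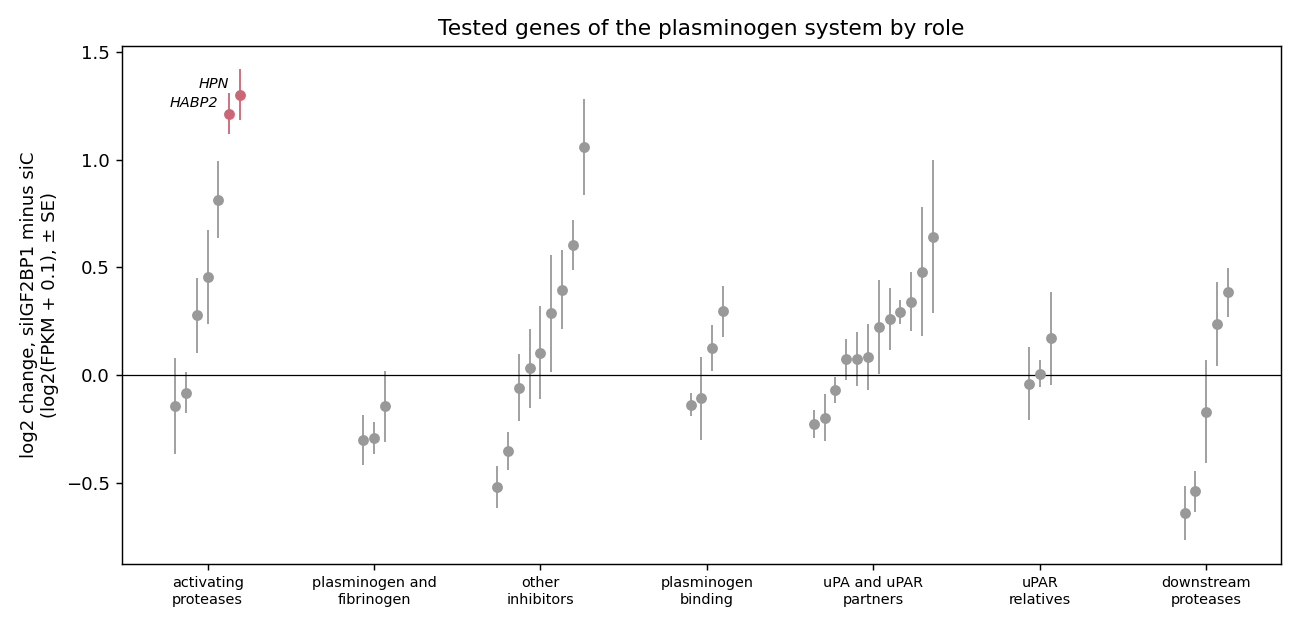
Log2 change (siIGF2BP1 minus siC on log2(FPKM + 0.1), with the SE) of the 43 tested genes of the plasminogen system other than the 4 genes described above, grouped by role. Red points passed the threshold and grey points did not. HPN (1.30) and HABP2 (1.21) are the only genes past it, both in the role at the left.

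Neighbours on the chromosome were compared with the genes themselves. Of the 8 nearest protein-coding genes, 6 were tested and 0 passed the threshold (limma, with 0 at an unadjusted p under 0.05 and 1, VCL, past it without siC replicate 3). Beside PLAU, CAMK2G (34586 bases away) had a log2 change of 0.042 and VCL (77697 bases away) of -0.14. Beside PLAT, AP3M2 had a log2 change of 0.10 and IKBKB of -0.14. CADM4, beside PLAUR, had -0.16 and MRPL44, beside SERPINE2, -0.052. The remaining neighbours were IRGC, listed at 0, and FAM124B, with 0 to 4 reads.

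**Figure D5:**
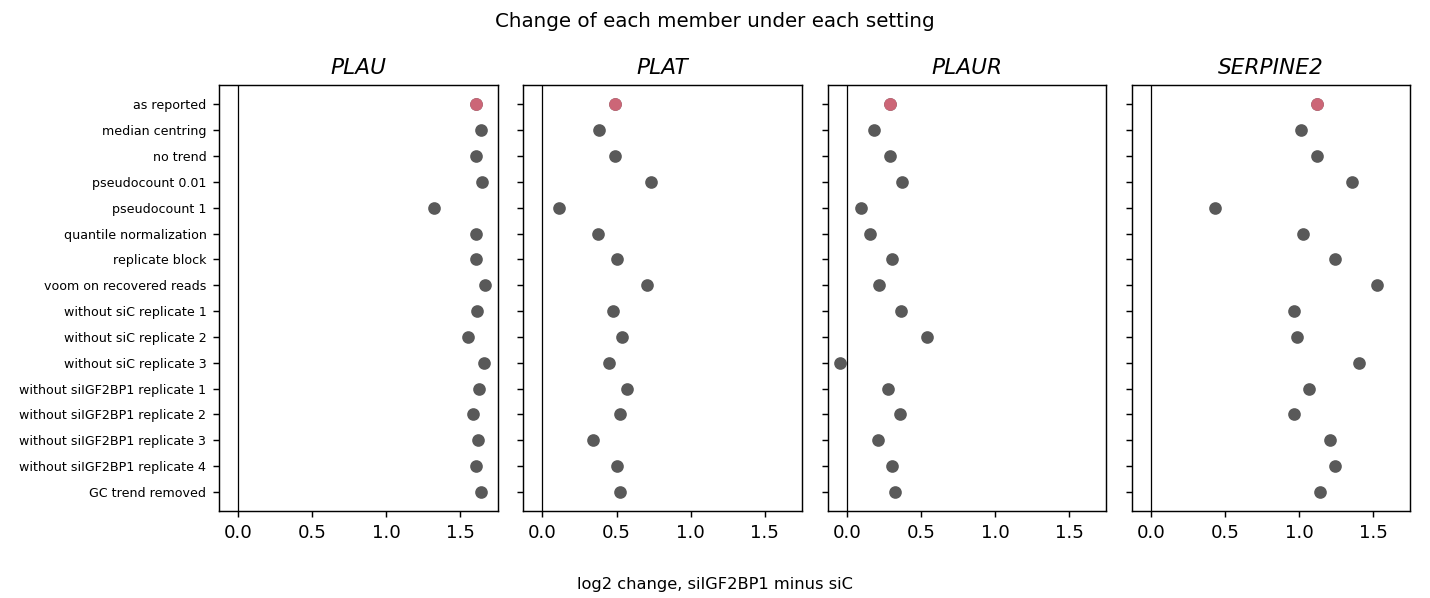
Log2 change (siIGF2BP1 minus siC) of the 4 genes as reported (red) and under each alternative setting (grey), on a common axis. PLAU stays between 1.32 and 1.67, SERPINE2 between 0.43 and 1.52 and PLAT between 0.11 and 0.73, all above 0, while PLAUR reaches -0.044 without siC replicate 3.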

How the data were processed

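The authors depleted ribosomal RNA, prepared directional libraries, clipped reads with Cutadapt (1.14), aligned them to GRCh38 with HISAT2 (2.1.0), counted them per gene with featureCounts (1.5.3) and an Ensembl annotation, and normalized with edgeR (3.18.1) and TMM, per the labels and the study's methods. The strand setting of the counting is not given in the sources used here. The deposited values are FPKM, 1 column per library, with the authors' gene length, and the table's own fold changes, p-values and FDR were not used. Reads per gene were recovered from FPKM times length, which came out whole for 100.0% of values above 0 (tolerance 0.01 of a read). FPKM are not counts, so the 14839 genes that averaged 1 FPKM or more were tested two-sided with limma (3.58.1, R 4.3.3) and its trend option on log2(FPKM + 0.1). The model held the group alone, and p-values were adjusted by Benjamini-Hochberg over these genes, with a threshold of 0.01. Log2 changes understate the change of low genes. The fit was tried on simulated reads without an outlying library or a GC trend, so that trial does not cover these features of the data.

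The members and lists were chosen with earlier results of these data known. Genes named are the members, IGF2BP1, the list genes past the threshold and the 2 highest in siC of each role, nearest protein-coding neighbours, overlapping genes and the 3 genes closest in pattern. Any other gene was named after its values were seen. Coordinates, exons and 3'UTRs are from GENCODE 44 (GRCh38), newer than the authors' annotation. Alternatives were other pseudocounts, no filter, median centring, quantile normalization, no trend, voom on recovered reads, a replicate block, removal of a GC trend, and each library left out. Some items are not reported here.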

Additional observations from a re-analysis of the deposited data

Results flagged for a closer look

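A2M stood at 132, 124, 133 and 134 FPKM in siIGF2BP1 replicates 1 to 4. Replicate 2 was the lowest, and its distance to the next library was 0.830 of the group's range, just past Dixon's critical value for 4 samples. Among 21 genes looked at in siIGF2BP1 it was the 1 gene past that limit, where 1.05 would be so by chance. None of PLAU, PLAT, PLAUR and SERPINE2 was past it, and siC, with 3 libraries, is too small for it.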

How the results depend on the processing

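The log2 changes of the low genes depend on the pseudocount by construction. With a pseudocount of 1 they were 1.32 for PLAU, 0.11 for PLAT and 0.43 for SERPINE2, and with 0.01, chosen after seeing the data like the GC correction, 0.73 for PLAT. Leaving out 1 library gave ranges of 1.55 to 1.66 (PLAU), 0.34 to 0.57 (PLAT), -0.044 to 0.54 (PLAUR) and 0.96 to 1.41 (SERPINE2). No member turned under the other settings. PLAT, with 10 to 29 reads per library, is limited by depth. Per MANE Select length, chosen after seeing the data, the mean log2 ratios in siC and siIGF2BP1 were 3.51 and 4.38 for PLAU to PLAT (4.29 and 5.15 per deposited length), 1.24 and 2.50 for PLAU to PLAUR (2.61 and 3.88) and 1.41 and 1.67 for PLAU to SERPINE2 (3.07 and 3.33).

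Counts of all genes ran from 66 to 533 higher and from 53 to 990 lower when 1 library was left out, with the highest counts without siC replicate 3, and were 146 and 206 without a filter, which tests more genes. List genes ran from 2 to 6 higher and from 0 to 7 lower, with 2 and 0 unless siC replicate 3 was left out. HABP2 and HPN remained among the calls under each setting but the replicate block. With voom on recovered reads 4 list genes were higher and 2 lower, or 14% of the list against 5.67% of all genes tested. With quantile normalization 3 were higher and 1 was lower, or 9.3% against 3.63%. VCL was the 1 neighbour that passed without siC replicate 3, and the cause was not tested. With the replicate block, 0 genes were higher or lower, 0 list genes were higher, and IGF2BP1 (-2.36, limma adjusted p = 0.0909, from 1.5e-06 to 0.0909 over its settings), HABP2 (1.18) and HPN (1.30) no longer passed. This fit has fewer degrees of freedom and siIGF2BP1 replicate 4 has no partner in it. The labels do not say whether equal numbers pair the libraries. Deviations of same-numbered libraries correlated at -0.0263, -0.118 and -0.111, and those of other pairs from -0.169 to 0.201. With so few libraries these correlations cannot decide whether the libraries are paired. Values near 0 turned: CAMK2G (from -0.061 to 0.10 leaving out 1 library), MRPL44 (0.018 with quantile normalization), CD59 (-0.012 with the block and from -0.013 to 0.033 leaving out 1 library) and LYPD6 (0.0046 with the block, 0.0089 with voom, from -0.15 to 0.11 leaving out 1 library).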
